A study of Mus musculus with 6 samples.

Results

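Expression of 9 fibroblast growth factor (FGF) genes was described in single cells of the mouse fracture callus: the receptors Fgfr1, Fgfr2, Fgfr3 and Fgfr4, the receptor-like gene Fgfrl1, and the ligands Fgf1, Fgf2, Fgf7 and Fgf18. They were taken by symbol from the gene lists of the files, which share 52081 genes across the 6 libraries, and all 9 were found. The study asked what loss of the mechanosensitive channel Piezo1 in chondrocytes does to endochondral repair, and sequenced callus cells of 12-week-old mice, stated to be male, 14 days after femoral fracture. The 3 libraries titled CON come from mice whose genotype label reads wt, which the methods call Piezo1 f/f. The 3 libraries titled CKO carry the label Col2CreERT; Piezo3-/-, while the series design writes Piezo1. In these mice a tamoxifen-inducible Cre is driven by Col2a1, so that deletion takes place in cells that express Col2a1 at the time of treatment. Mice of both groups were given tamoxifen at 75 mg/kg on 5 days from day 5 on. The labels do not say whether each library holds cells of 1 mouse, and the study's text gives different numbers of mice for this experiment in different places, so the spread between libraries may be partly technical. The groups are called control and knockout here.

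FGF ligands are secreted proteins that bind receptor tyrosine kinases at the cell surface together with heparan sulfate chains, and the bound receptors signal through the MAP kinase cascade and STAT proteins. In the growth plate, FGFR3 restrains the proliferation of chondrocytes, and activating mutations of it cause achondroplasia. FGFR1 is known from hypertrophic chondrocytes and from cells of the osteoblast lineage, and FGFR2 from osteoprogenitors and the periosteum. FGF18, made in the perichondrium, is a ligand of FGFR3 in cartilage.

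In these 3′ libraries each captured transcript is counted once through its unique molecular identifier (UMI), so a count does not scale with transcript length. Libraries held 57626530 to 103784364 UMIs, and 41863 cells were kept (3109 to 10065 a library). Levels are given as CPM, the UMIs of a gene in all cells of a class in 1 library scaled to a sum of 1000000 over all genes, for libraries with at least 10 cells of the class. Classes were named from clusters by marker genes, and the 9 FGF genes, the FGF pathway list and Piezo1 were left out of the clustering. The class of hypertrophic chondrocytes (HTC-like, 634 cells) was led by Col10a1 and Ihh and had UMIs of all 6 of its markers in every library, but 426 of its cells came from knockout replicate 3, and control replicates 2 and 3 and knockout replicate 2 gave 13 to 19 cells each. In knockout replicate 2 one of these leading markers, Ihh, went against the name and the other, Col10a1, with it. Col10a1 was at 12361 CPM in its HTC-like and at 6426 in its chondrocyte-like cells, but Ihh was at 256 CPM in its HTC-like and at 359.6 in its chondrocyte-like cells, whereas in the other libraries it was higher in HTC-like cells (604 to 1440 against 42.8 to 169). The chondrocyte-like class held 2874 cells, of which knockout replicate 2 gave 22. It joined a cluster led by Ucma and Sfrp5 (1772 cells) and one with Clec3a and Mia among its leading genes (1102 cells). A further 5296 cells with few UMIs carried chondrocyte markers, with Col10a1 first among the leading genes of both clusters they formed. These low-UMI cells (median 881 and 1908 UMIs in these clusters) were kept apart from the classes ranked and compared below. Of them, 1781 came from control replicate 1 and 1310 from knockout replicate 1.

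Knockout replicate 3 stood apart from its stated sex: Xist was at 579 CPM there and at no more than 0.168 in the other libraries, and Ddx3y had no UMI there and 52.3 to 124 CPM elsewhere. The ratios of Fgfr1, Fgfr2, Fgfr3 and Fgfrl1 between the cartilage classes and the fold changes between genotype labels with the lowest p-values are therefore accompanied by values without it. Piezo1 did not mark the knockout libraries. Over both cartilage classes it was at 67.3, 42.8 and 52.2 CPM in control replicates 1 to 3 and at 135, 54.6 and 46.3 in knockout replicates 1 to 3 (log2 fold change 0.58 ± 0.40 SE, edgeR adjusted p = 1.00). The groups overlapped. Counts per gene from 3′ libraries do not show which exons a transcript holds, and read positions were not looked at, so this is no check of the deletion. The study verified the knockout by immunofluorescence staining. It also reported decreased Piezo1 in a cluster of hypertrophic chondrocytes in its single-cell data. Free RNA was present, and neutrophil-like cells, which should lack cartilage transcripts, are given beside the levels as background. Their Col2a1 was at 17.8 to 3217 CPM, highest in control replicate 1. Neutrophil-like cells were shallow, with median depths of 1769 to 5271 UMIs a library, against 5929.5 to 27956 in osteocyte-like cells. The same free RNA can be a larger share of the CPM of shallow cells. A level near that of neutrophil-like cells is therefore not shown to be background.

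**Figure D1:**
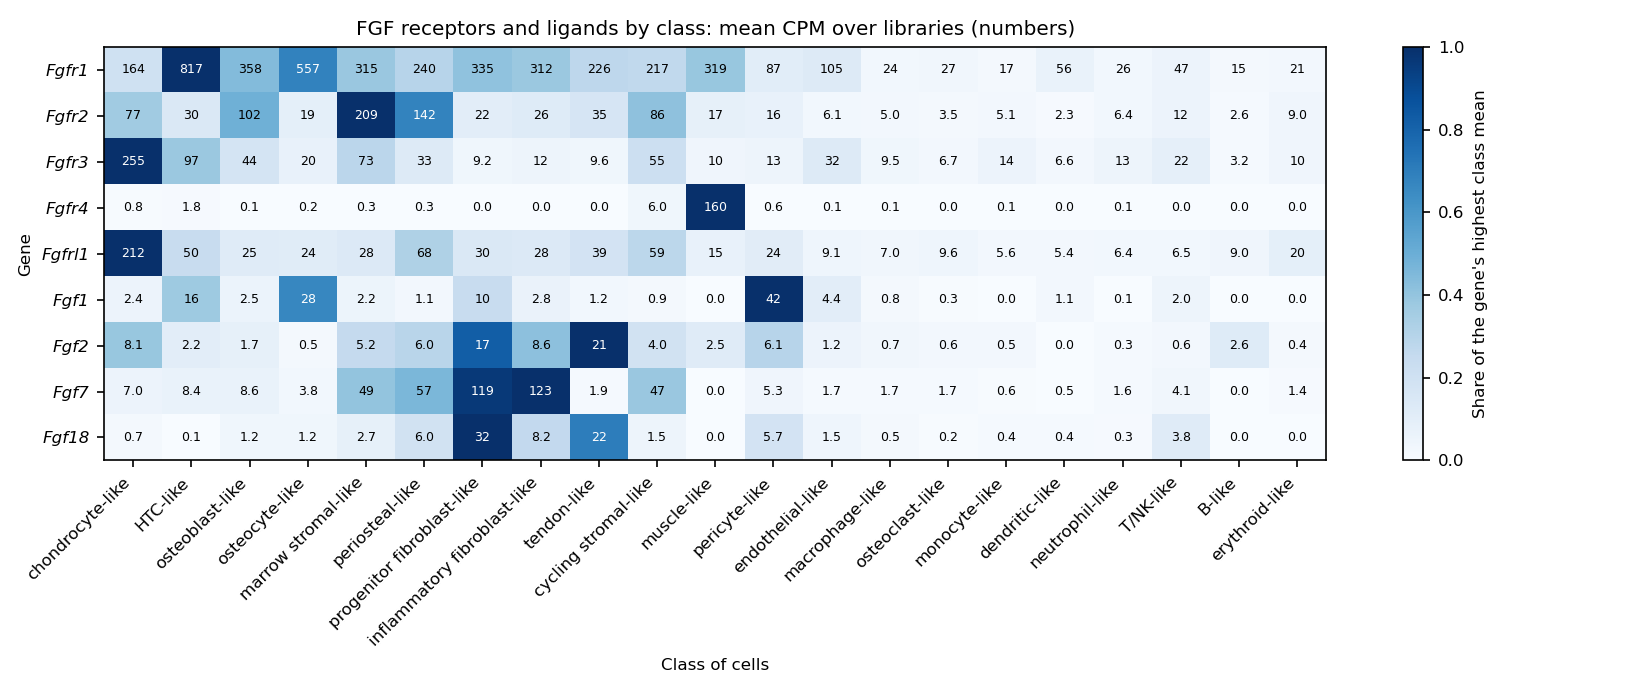
Mean CPM of each FGF gene (rows) in each of 21 classes of cells (columns), over the libraries with at least 10 cells of the class. Numbers are the means and the shade is the share of the gene's highest class mean. The receptors peaked in different skeletal classes (Fgfr1 in HTC-like, Fgfr2 in marrow stromal-like, Fgfr3 and Fgfrl1 in chondrocyte-like cells), whereas the ligands peaked outside cartilage.

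Fgfr1 was 4.74 times higher in HTC-like than in chondrocyte-like cells of the same library, while Fgfr2, Fgfr3 and Fgfrl1 were 2.62, 2.61 and 4.07 times lower, each in 6 of 6 libraries. Of the 9 FGF genes, 2 (Fgfr1 and Fgf1) were higher in the HTC-like class in all 6 libraries, against 7.84% of the 16729 genes with at least 30 UMIs, and 3 (Fgfr2, Fgfr3 and Fgfrl1) were lower in all 6, against 8.83%. For Fgf1 the count rested on 1 UMI in control replicate 2 (2.61 against 2.56 CPM). Comparisons between classes are descriptions, since classes were defined in the same cells, and carry no test.

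Fgfr1 (ENSMUSG00000031565, GRCm38 chromosome 8, 25513654 to 25575718, plus strand) was highest in HTC-like cells. It was at 1225, 514.0 and 561 CPM in control replicates 1 to 3 and at 1301, 519 and 779 in knockout replicates 1 to 3. Replicate 1 of both groups was above the others, and the groups overlapped. In chondrocyte-like cells the same libraries gave 198, 115 and 163 and then 186, 208 and 114.0 CPM, so that every library had its higher value in HTC-like cells. The log2 ratio between these classes was 2.24 ± 0.60 (SD, n = 6), and 2.14 without knockout replicate 3. Neutrophil-like cells had 25.5 ± 20.9 CPM (SD, n = 6).

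The order of Fgfr1 levels went from HTC-like (817 ± 360.1 CPM, SD, n = 6) through osteocyte-like (557 ± 191, n = 5) to osteoblast-like cells (358 ± 81.1, n = 6). The first step was within the spread: HTC-like cells were above osteocyte-like cells in 4 of 5 libraries. Osteocyte-like cells were above osteoblast-like cells in 5 of 5 libraries, with a log2 ratio of 0.68 ± 0.44. Progenitor fibroblast-like (335 ± 67.0), muscle-like (319 ± 11.6, n = 2), marrow stromal-like (315 ± 79.6) and inflammatory fibroblast-like cells (312 ± 59.2) did not differ beyond their spread. Chondrocyte-like cells, at 164 ± 41.1, were below the next higher class, cycling stromal-like cells, in 6 of 6 libraries but within the SD. Endothelial-like cells had 105 ± 26.0, pericyte-like cells 86.6, and blood cell classes 15.2 to 55.7.

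Fgfr3 (ENSMUSG00000054252, chromosome 5, 33721674 to 33737068, plus strand) was highest in chondrocyte-like cells. Its levels there were 339, 225 and 276 CPM in control replicates 1 to 3 and 365, 114 and 211 in knockout replicates 1 to 3. The lowest value belonged to knockout replicate 2, which has 22 such cells, and the groups overlapped. HTC-like cells had 103, 167 and 91.6 CPM in the controls and 96.7, 67.4 and 56.8 in the knockouts, below the chondrocyte-like value of every library (log2 ratio -1.38 ± 0.63, SD, n = 6, and -1.28 without knockout replicate 3). Chondrocyte-like cells (255 ± 92.1) stood above HTC-like cells (97.1 ± 38.6) beyond the SD of both, and HTC-like cells stood above marrow stromal-like cells (72.6 ± 18.3) in 6 of 6 libraries but within their SD. Neutrophil-like cells had 12.5 ± 9.77, and osteocyte-like (19.6 ± 16.9), tendon-like (9.59 ± 9.12) and both fibroblast classes (9.21 and 12.4) lay near that level. Of all UMIs of Fgfr3, 64.5% were in chondrocyte-like cells. Its processed pseudogene Fgfr3-ps had 8 UMIs in all cells.

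Within the chondrocyte-like class, Fgfr3 and Fgfr2 ran in opposite directions. Fgfr3 was 2.00 times higher in the Clec3a and Mia cluster than in the Ucma and Sfrp5 cluster (387 against 197 CPM, higher in 5 of 5 libraries with at least 10 cells of both, log2 ratio 1.00 ± 0.47). Fgfr2 was 3.03 times lower there (38.4 against 116, lower in 5 of 5, log2 ratio -1.60 ± 0.29). The ligand Fgf7 was also lower there in 5 of 5 libraries (4.62 against 10.97), and Fgfr1 was lower in 5 of 5 (135 against 174). Fgfrl1 (235 against 262) and Fgf2 (9.35 against 9.95) differed by less than their spread.

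RefSeq windows on GRCm38.p6, from 250 bases before to 50 after a start site, were matched for 7 of the 9 genes, and Fgfr1 was not among them. The windows of Fgfr3 and Fgfrl1, the receptor genes that were highest in chondrocyte-like cells, are printed 5′ to 3′ to show where the GC box, a motif of the factor Sp1 (GGGCGG, or CCGCCC on the other strand, overlaps counted), lies in them, in capitals. The Fgfr3 window is chr5:33721474-33721773 (plus strand, 69.7% G or C) and the Fgfrl1 window chr5:108693979-108694278 (plus strand, 73.7%). The Fgfrl1 window lies inside the annotated gene, 3′ of its first base at 108692382, and so belongs to a start site further downstream.
Fgfr3: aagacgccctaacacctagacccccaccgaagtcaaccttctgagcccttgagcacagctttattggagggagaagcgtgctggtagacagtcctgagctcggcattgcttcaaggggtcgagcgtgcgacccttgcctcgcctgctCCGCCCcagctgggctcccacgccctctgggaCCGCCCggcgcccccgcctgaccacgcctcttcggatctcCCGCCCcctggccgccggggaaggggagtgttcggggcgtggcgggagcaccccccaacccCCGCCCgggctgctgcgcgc
Fgfrl1: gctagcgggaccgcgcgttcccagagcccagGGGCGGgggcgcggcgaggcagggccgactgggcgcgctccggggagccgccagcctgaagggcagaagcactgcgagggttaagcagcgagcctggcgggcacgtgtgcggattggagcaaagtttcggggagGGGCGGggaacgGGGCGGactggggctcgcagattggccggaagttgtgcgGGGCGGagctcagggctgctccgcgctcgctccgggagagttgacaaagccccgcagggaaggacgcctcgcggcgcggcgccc
Each window held 4 matches. A second RefSeq window of Fgfr3, 3′ of the first, held 2. The Fgfr4 window (65.3% G or C) also held 4, those of Fgf18 (78.7%) and Fgf2 (62.7%) held 1 each, and those of Fgfr2 (43.7%) and Fgf7 (45.7%) held 0, so neither the matches nor the base composition were particular to the receptors of chondrocyte-like cells. The last bases of the Fgfr2 window, unlike those of the other windows, were not found in a reference transcript of the gene. At least 1 match was found in 35.7% of all 32851 windows of this length, so a match is common, and it is a description of the letters only. Neither the TATA motif TATAAA (13.6% of windows) nor the SOX core ACAATG (12.6%) was found in a window of these genes.

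Fgfr2 (ENSMUSG00000030849, chromosome 7, minus strand) had its highest level in marrow stromal-like cells, the class led by Mmp9, Cxcl12 and Gdpd2. The controls had 271, 290.1 and 233.1 CPM there and the knockouts 233.0, 118 and 111. Every knockout library lay below every control, knockout replicate 1 (24 cells) by less than 1 CPM. In this class the groups did not overlap for 9.72% of 12959 genes. Periosteal-like (142 ± 47.6), osteoblast-like (102 ± 46.6), cycling stromal-like (86.0 ± 42.4) and chondrocyte-like cells (76.5 ± 28.0, all SD, n = 6) followed, each within the spread of its neighbour. HTC-like cells had 29.5 ± 10.7, with 23.4, 28.7 and 45.8 in the controls and 27.3, 37.1 and 15.0 in the knockouts. Their log2 ratio to chondrocyte-like cells was -1.39 ± 0.53, and -1.27 without knockout replicate 3. From osteoblast-like to osteocyte-like cells Fgfr2 was 6.46 times lower (log2 ratio -2.69 ± 1.13, lower in 5 of 5 libraries), the opposite of Fgfr1. Neutrophil-like cells had 6.38 ± 6.93.

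Fgfrl1 (ENSMUSG00000008090, chromosome 5, 108692382 to 108706924) encodes a receptor-like protein that binds FGFs but has no kinase domain. In chondrocyte-like cells it was at 213, 252 and 321 CPM in the controls and at 249, 41.3 and 192 in the knockouts, and in HTC-like cells at 39.0, 52.2 and 109 and then 43.2, 23.6 and 33.3. The log2 ratio was -2.02 ± 0.70 (SD, n = 6), and -1.92 without knockout replicate 3. Chondrocyte-like cells (212 ± 94.3) were above the next class, periosteal-like cells (68.1 ± 19.5), in 6 of 6 libraries and beyond the SD of both. Of all UMIs of the gene, 62.8% were in chondrocyte-like cells.

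**Figure D2:**
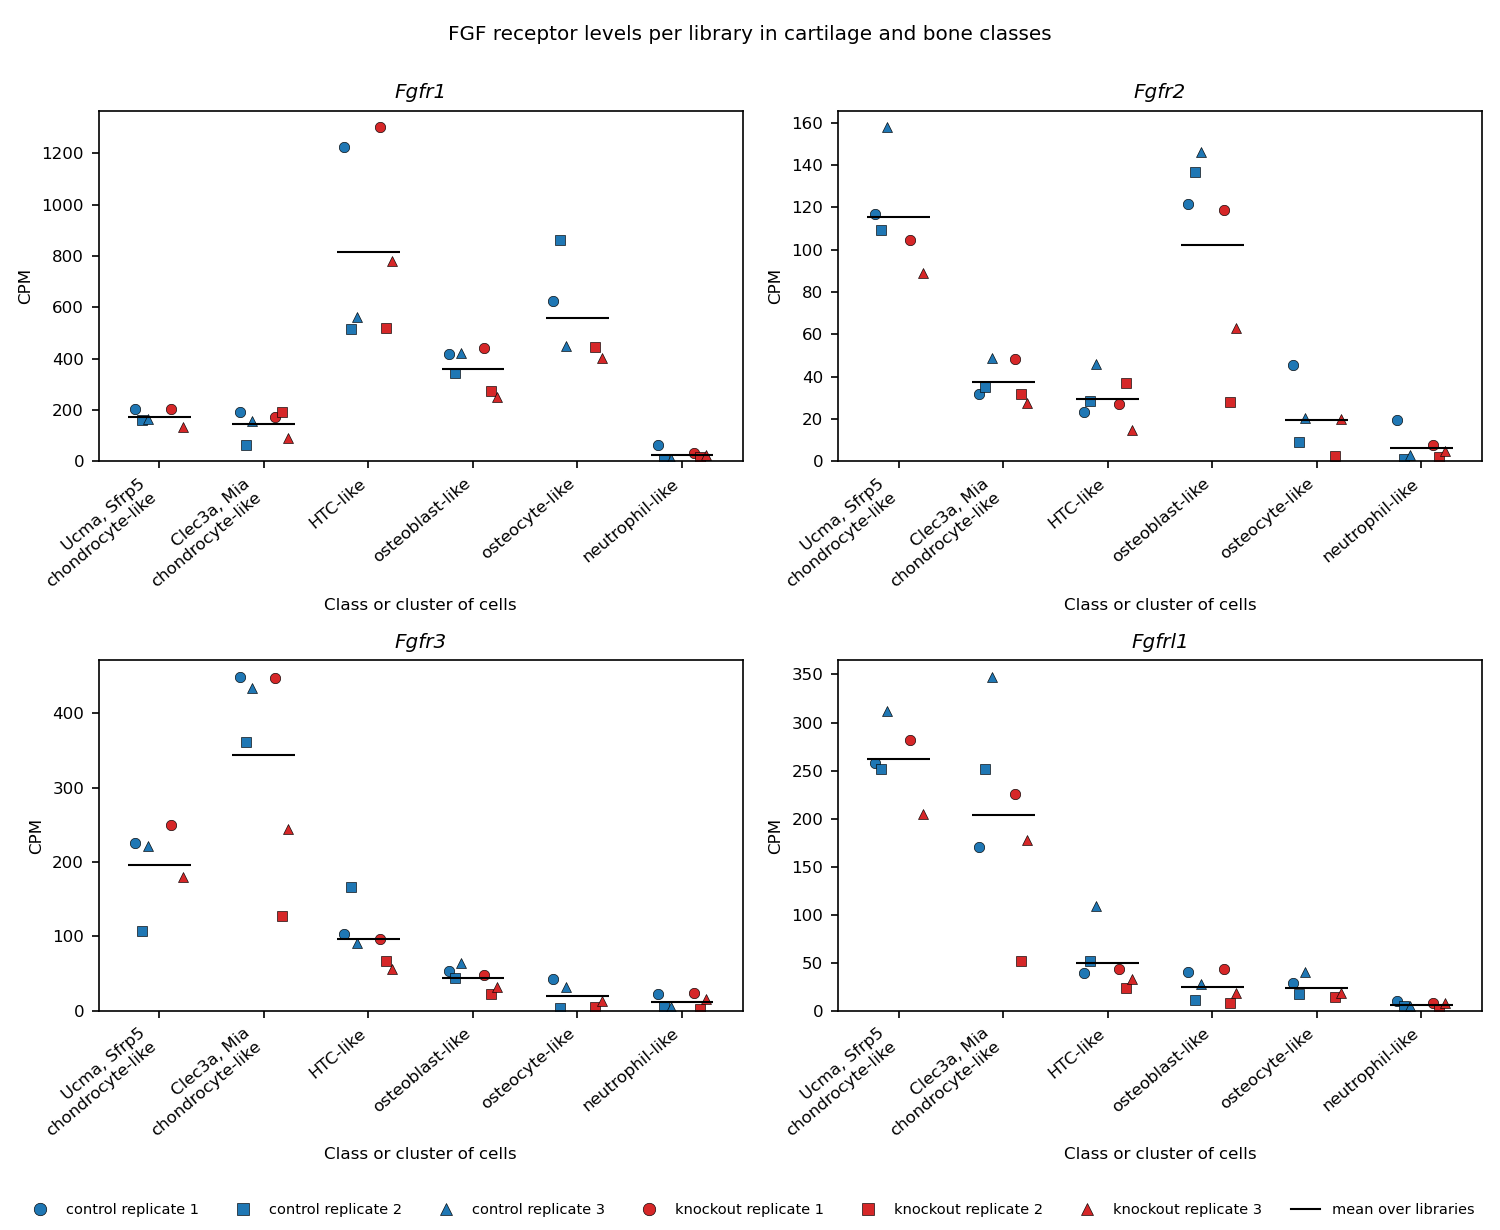
CPM of Fgfr1, Fgfr2, Fgfr3 and Fgfrl1 (vertical axes, linear) in the 2 chondrocyte-like clusters, HTC-like, osteoblast-like and osteocyte-like cells, with neutrophil-like cells as background; each point is a library with at least 10 such cells, blue for control and red for knockout, and the bar is the mean. Fgfr1 stepped up in HTC-like cells to 514.0 to 1301, where Fgfr3 stood at 56.8 to 167, against 128 to 449 in the Clec3a and Mia cluster, lower in 6 of 6 libraries.

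Fgfr4 (ENSMUSG00000005320, chromosome 13) was highest in muscle-like cells, which held 34.0% of its UMIs. It was at 145 CPM in control replicate 1 (22 cells) and at 176 in knockout replicate 3 (12 cells), the 2 libraries with at least 10 such cells. Cycling stromal-like cells came next with 5.96 ± 10.7, where control replicate 1 had 27.5 and the others at most 4.80. The 56 UMIs of control replicate 1 came from 5 of its 60 cells. In every other class the mean was at most 1.75. Chondrocyte-like cells held 48 UMIs of the gene and HTC-like cells 8.

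The levels were also seen per cell. Of HTC-like cells, 73.7% to 100% a library had more Fgfr1 than Fgfr3 UMIs, and of chondrocyte-like cells 25% to 38.9% in the 5 libraries other than knockout replicate 2 (68.2% of 22 cells). UMIs of both receptors were found in 42.1% to 87.3% of the HTC-like cells and in 38.7% to 94.3% of the chondrocyte-like cells. Shares of cells with a UMI depend on depth, so each cell was thinned to 500 UMIs, which left out no cell of either class and 6 of 4969 neutrophil-like cells. With the cells of all libraries pooled, Fgfr1 was then found in 38.5% of HTC-like and 8.14% of chondrocyte-like cells, against 1.05% of neutrophil-like cells (99.2%, 75.6% and 5.21% unthinned, at median depths of 20244, 20428 and 2471 UMIs). Fgfr3 was found in 3.94% and 11.1%, against 0.645% (58.8%, 83.1% and 3.10% unthinned). Of the 634 pooled HTC-like cells, 426 came from knockout replicate 3, where 36.9% had Fgfr1 after thinning (exact 95% interval, counting error only, 32.3% to 41.6%). Control replicate 1 gave 51.8% of 110 cells (42.1% to 61.4%), and mean shares over libraries, which weigh each library alike, are given below.

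The ligands had their highest levels outside cartilage, although Fgf2 and Fgf7 were also found in chondrocyte-like cells. Fgf18 (ENSMUSG00000057967, chromosome 11), the ligand of chondrocyte FGFR3 in the growth plate, was highest in progenitor fibroblast-like cells, named from Clec3b, Dpt and Pi16. It was at 46.4, 36.8 and 19.98 CPM in the controls and at 20.2, 31.1 and 35.7 in the knockouts. The groups overlapped. Tendon-like cells followed (22.2 ± 12.3, n = 5), below them in 4 of 5 libraries and within the spread. Periosteal-like cells had 5.997 ± 3.87, which was 6.25 times less than progenitor fibroblast-like cells (lower in 6 of 6 libraries). Chondrocyte-like cells had 0.721 and HTC-like cells 0.121 CPM, from 53 and 5 UMIs, against 0.291 in neutrophil-like cells (8 UMIs). HTC-like cells of control replicates 2 and 3 and knockout replicates 1 and 2 had 0 UMIs. These allow up to 7.83, 17.2, 1.54 and 10.1 CPM, and 0 UMIs in chondrocyte-like cells of knockout replicate 2 allow up to 5.90. Chondrocyte-like cells were above neutrophil-like cells in 5 of 6 libraries, in 2 of which neutrophil-like cells had 0 UMIs from few cells, with a floor above the chondrocyte-like level. The low-UMI cells kept apart had 5.33, 0 and 1.95 CPM in the controls and 4.44, 2.15 and 4.39 in the knockouts. These levels rested on at most 11 UMIs a library.

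Fgf2 (ENSMUSG00000037225, chromosome 3), a broadly acting mitogen, was highest in tendon-like (20.8 ± 10.7, n = 5) and progenitor fibroblast-like cells (17.1 ± 10.9, n = 6), which did not differ beyond their spread. In chondrocyte-like cells it was at 10.5, 11.8 and 6.70 CPM in the controls and at 11.6, 0 and 7.95 in the knockouts, where 0 UMIs in knockout replicate 2 allow up to 5.90. Chondrocyte-like cells held 32.7% of all Fgf2 UMIs. The level was lower in HTC-like cells (2.19) in 5 of 6 libraries. In control replicate 3, however, 0 UMIs from 13 HTC-like cells allow up to 17.2, above its chondrocyte-like level. Neutrophil-like cells had 0.296. Schwann-like cells were left out of the ranking of classes, since only control replicate 2 held at least 10 of them (24 cells, with 39.9 CPM of Fgf2 from 4 UMIs).

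Fgf7 (ENSMUSG00000027208, chromosome 2), the keratinocyte growth factor that acts through an FGFR2 isoform of epithelia, was highest in the fibroblast classes. Inflammatory fibroblast-like cells had 19.2, 139 and 263 CPM in the controls and 195, 51.5 and 73.9 in the knockouts, the largest SD of the gene in any class (92.9). Progenitor fibroblast-like cells had 104, 150.2 and 88.8 and then 189, 88.5 and 94.0, without a difference from the former beyond the spread. Both were followed by periosteal-like (56.9 ± 13.3) and marrow stromal-like cells (49.4 ± 25.6), and periosteal-like cells were below progenitor fibroblast-like cells in 6 of 6 libraries and beyond the SD of both. Osteoblast-like cells had 8.65 ± 6.72, 9.15 times less than periosteal-like cells of the same libraries. The low-UMI cells kept apart had 16.0, 21.3 and 56.5 CPM in the controls and 36.2, 7.15 and 3.66 in the knockouts. These levels rested on 5 to 57 UMIs a library.

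Fgf1 (ENSMUSG00000036585), a ligand that binds all FGF receptors, was highest in pericyte-like cells, at 75.5, 43.6 and 31.9 CPM in the controls and at 50.3, 35.1 and 18.4 in the knockouts. Osteocyte-like cells were next (28.3 ± 13.9, n = 5), within the spread, and 12.3 times above osteoblast-like cells in 5 of 5 libraries. HTC-like cells had 15.8 ± 17.7 CPM from 96 UMIs: control replicate 3 and knockout replicate 2 had 40.1 and 37.1, from 7 and 11 UMIs, and the other libraries 2.61 to 5.64. Each library was above its own chondrocyte-like cells (2.39 ± 1.26), control replicate 2 with 2.61, from 1 UMI, against 2.56. Schwann-like cells, outside the ranking as for Fgf2, had 49.8 CPM of Fgf1 from 5 UMIs in control replicate 2.

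**Figure D3:**
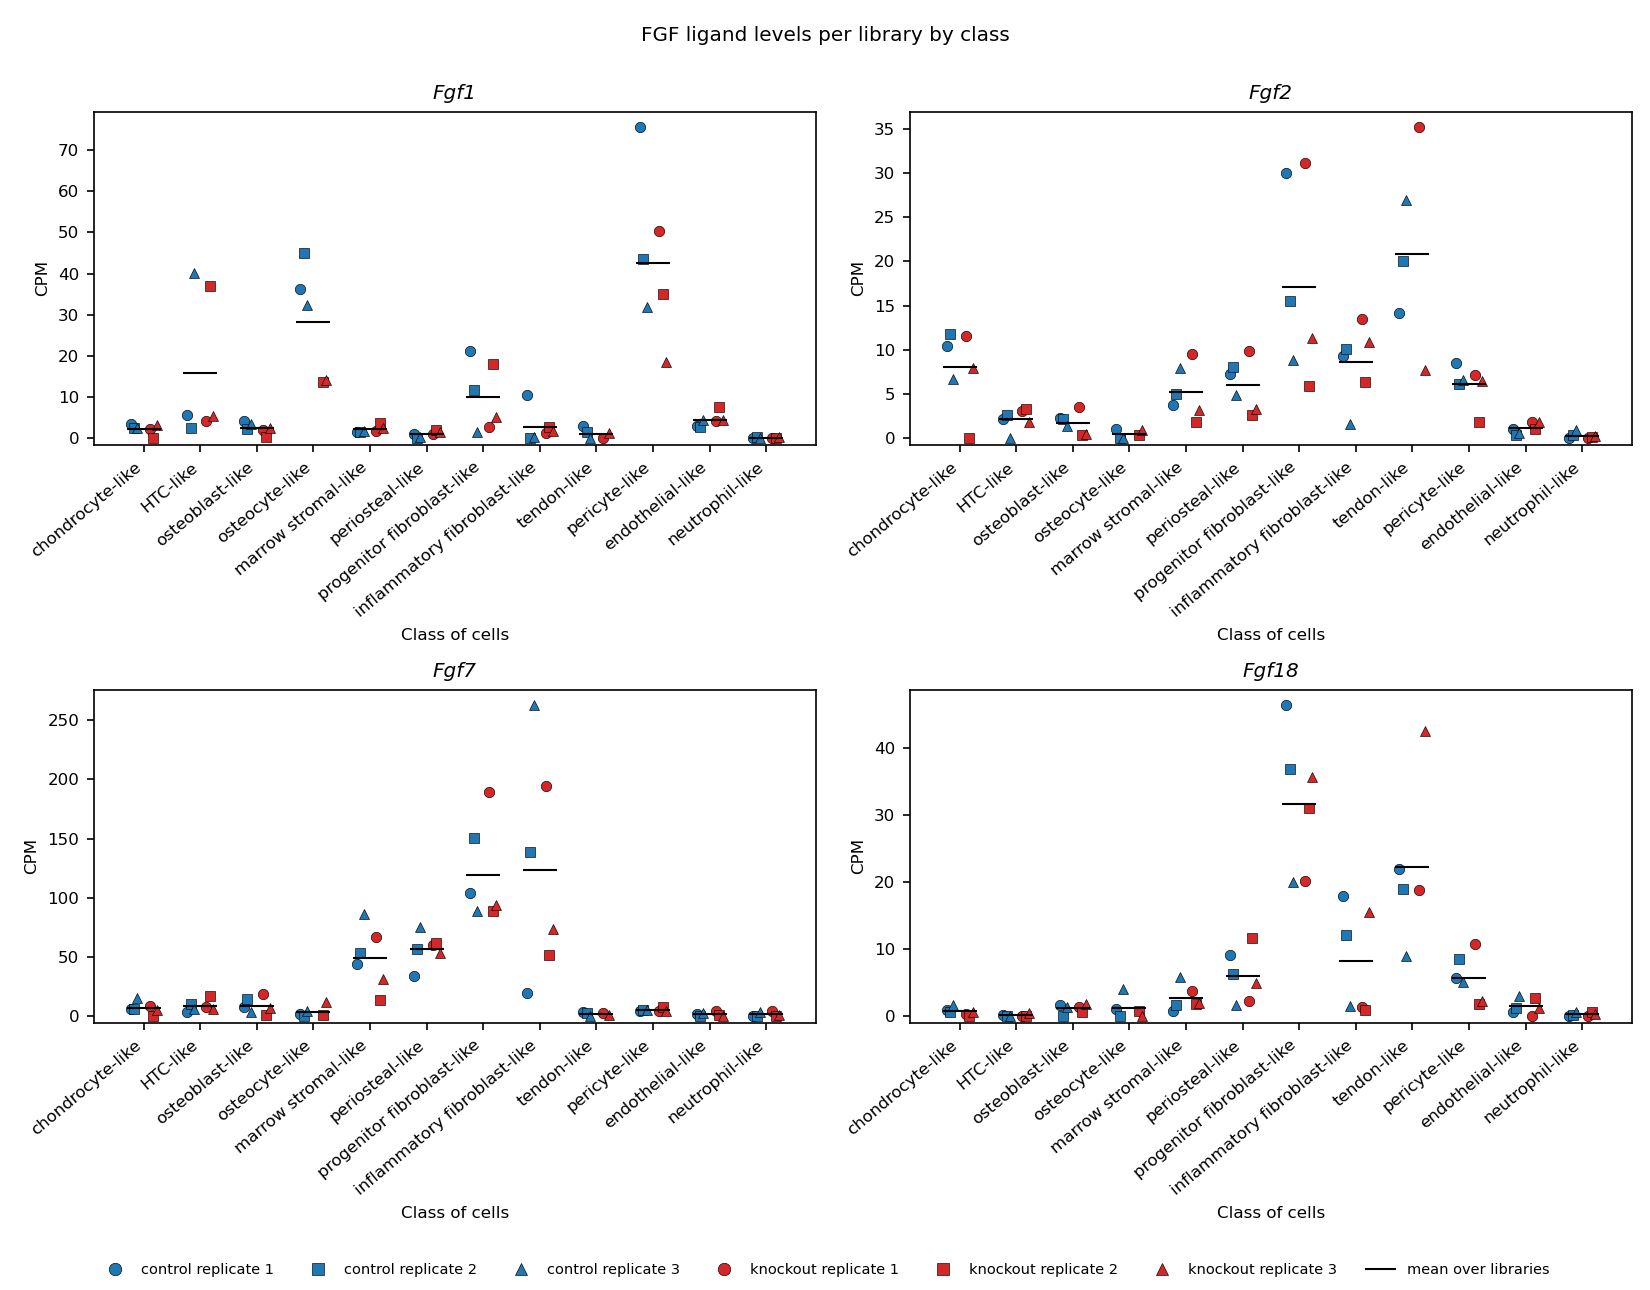
CPM of Fgf1, Fgf2, Fgf7 and Fgf18 (vertical axes, linear) by class; each point is a library with at least 10 cells of the class, blue for control and red for knockout, and the bar is the mean. Fgf18 stood at 19.98 to 46.4 and Fgf7 at 88.5 to 189 in progenitor fibroblast-like cells. The Fgf18 points of chondrocyte-like and HTC-like cells lay below 2. Some of these are 0 UMIs, which allow up to 17.2 CPM in HTC-like cells of control replicate 3.

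Without knockout replicate 3, each of the 9 genes other than Fgfr4 kept its highest class (Fgfr1 824 ± 402 in HTC-like, Fgfr3 264 ± 100.1 in chondrocyte-like, Fgf18 30.9 ± 11.3 in progenitor fibroblast-like cells, 5 libraries). For Fgfr4 only 1 library with enough muscle-like cells was then left.

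The genes whose class means ran closest to a member were found by Pearson's r of log2(CPM + 1) over 21 classes, among genes with at least 20 CPM in their highest class. Closest to Fgfr3 were Trpv4, a calcium channel of chondrocytes (r = 0.92), Rarres1 (0.92), Papss2, which makes the sulfate donor for proteoglycans (0.89), Ppp1r1b (0.87) and Pth1r, the receptor of PTHrP (0.87). Fgfr1 ran with Ryk, a Wnt co-receptor (0.93), Scrn1 (0.93), Tpbg (0.92), Six4 (0.92) and Ergic2 (0.92). Closest to Fgfr2 were Omd, the keratan sulfate proteoglycan osteomodulin (0.93), Olfml3 (0.92), Colec12 (0.92), Ndnf (0.90) and Mpped2 (0.90). Fgfr4 ran with the muscle stem cell genes Myf5 (0.97), Myod1 (0.97) and Pax7 (0.97) besides 1110002E22Rik (0.97) and Iqsec3 (0.96), and Fgfrl1 with Kcns1 (0.91), Fibin (0.89), Bsg (0.89), Plod2, a collagen lysyl hydroxylase (0.89), and Katnal1 (0.88).

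Among the ligands, Fgf18 ran closest to Clec3b (0.90), Egfl6 (0.89), Il33 (0.89), Fez1 (0.88) and Apod (0.88), and Fgf2 to Calhm5 (0.92), Igsf10 (0.91), Serpina3n (0.91), Bmpr1b (0.90) and Podn (0.90). Fgf7 ran with Gm2115 (0.94), Kng2 (0.93), Brinp3 (0.93), Col7a1 (0.92) and Pappa (0.90), and Fgf1 with Tmtc1 (0.86), Chmp4c (0.85), Mustn1 (0.84) and Cmbl (0.79). These are correlations across classes that share libraries and free RNA, and are given as descriptions.

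A list of 65 further genes of the pathway set the receptors in context. Of the 18 other FGF ligands, 13 stayed under 5 CPM in every class. Most of the highest genes of the list were co-receptors and binding proteins: in chondrocyte-like cells the genes with most CPM were Sdc4 (848 ± 304 CPM), the perlecan gene Hspg2 (737 ± 220.0), the immediate early gene Egr1 (462 ± 227), Gpc1 (352 ± 130) and Sdc3 (333 ± 55.0), and the same 5 led in HTC-like cells, with Sdc4 at 555 ± 163, Egr1 at 549 ± 235, Gpc1 at 339 ± 112, Sdc3 at 316 ± 36.4 and Hspg2 at 310.3 ± 156 (SD, n = 6). Syndecans, glypicans and perlecan carry the heparan sulfate to which FGFs bind.

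Of the 46 pathway genes with at least 30 UMIs in the cartilage classes, 5 were higher and 7 lower in HTC-like than in chondrocyte-like cells in all 6 libraries (10.9% and 15.2%, against 7.84% and 8.83% of all genes). The 12 genes are named here after their values were seen. Those lower were 5 of 13 co-receptors and binding proteins (Hspg2 2.54 times, Gpc6 3.64 times, Sdc2, Gpc4 and Flrt2), the heparan sulfate polymerase gene Ext1 (2.28 times) and the sulfatase gene Sulf2 (2.83 times). Sulf1, the other sulfatase that trims heparan sulfate, was 3.64 times higher in HTC-like cells (261 against 72.9 CPM). Of the 15 targets and feedback inhibitors, 3 were higher in all 6 libraries and 0 lower: the ERK phosphatase gene Dusp5, 5.36 times (64.7 against 10.6, with 119.9 in neutrophil-like cells), and the Sprouty genes Spry2, 3.15 times (22.8 against 8.08), and Spry4 (9.95 against 1.80). The adaptor gene Gab1 was 2.21 times higher (79.8 against 34.9).

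Between the genotype labels no FGF gene passed the test. UMIs were summed per library and class and fitted by quasi-likelihood in edgeR, p-values being adjusted (Benjamini-Hochberg) over all genes of a class. The counts that follow cover the 19 named classes with at least 2 libraries a group, without the low-UMI cells. Over these classes 0 of 91 tests of FGF genes and 0 of 616 tests of pathway genes were called at 0.05, against 0.000518% of all 193213 tests, and DESeq2 called 0 of the 91 as well. At an unadjusted p under 0.05 stood 5 of 91 FGF tests, against 3.44% of all tests, and 32 of 616 pathway tests (12 higher and 20 lower). Of 100 pairs of FGF gene and class with 3 libraries a group and at least 30 UMIs, 8 had groups that did not overlap, against 7.68% over all genes.

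In HTC-like cells, where 0% of 8604 genes were called, 4 FGF genes could be tested, and 0 stood at an unadjusted p under 0.05 (1.81% of all genes). Fgfr1 had a log2 fold change, knockout over control, of 0.17 ± 0.47 (SE), Fgfr2 of -0.32 ± 0.47, Fgfr3 of -0.75 ± 0.40 and Fgfrl1 of -0.82 ± 0.46, each with an edgeR adjusted p of 1.00. In chondrocyte-like cells, where 0% of 13945 genes were called, 7 FGF genes were tested, with 0 at an unadjusted p under 0.05 (2.01% of all genes). Of these, Fgfr1 had 0.13 ± 0.32, Fgfr2 -0.54 ± 0.31, Fgfr3 -0.21 ± 0.41 and Fgfrl1 -0.61 ± 0.53, and the other 3, Fgf1, Fgf2 and Fgf7, had -0.08, -0.15 and -0.47. The median of the 7 was -0.21, against -0.02 over all genes of the class. The standard errors, 0.31 to 0.54, bound what these libraries can show, and a p that misses the threshold does not show equal levels. In chondrocyte-like cells Fgfr3 and Fgfr1 changed direction when 1 library was left out. Without knockout replicate 2, which has 22 such cells, Fgfr3 had 0.11 and Fgfr1 -0.0042, and without control replicate 2 Fgfr1 had -0.036. Fgfr1 in HTC-like cells also changed direction when 1 library was left out, as given in the section on processing.

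The 5 tests at an unadjusted p under 0.05 were Fgf1 in osteocyte-like cells (log2 fold change -1.28 ± 0.39, edgeR adjusted p = 0.71), Fgfrl1 in cycling stromal-like cells (-1.65 ± 0.54, adjusted p = 1.00), Fgfr3 in osteocyte-like cells (-1.66 ± 0.60, adjusted p = 0.71), Fgfr2 in osteoblast-like cells (-0.97 ± 0.40, adjusted p = 0.98) and Fgfr2 in marrow stromal-like cells (-0.72 ± 0.32, adjusted p = 0.97). Fgf1 in osteocyte-like cells was at 36.3, 44.99 and 32.4 CPM in the controls and at 13.7 and 14.1 in knockout replicates 2 and 3, from 8 to 36 UMIs a library. Replicate 1 of the knockouts was left out of that fit because it had 9 such cells. Fgfr3 in osteocyte-like cells lay near the neutrophil-like level, as given above, which does not show that it was background. Knockout replicate 2 had the least Col2a1 in neutrophil-like cells (17.8 CPM), and the part of free RNA in this Fgfr3 fold change was not tested. Without knockout replicate 3 the 5 log2 fold changes, in the order above, were -1.24, -1.89, -2.16, -0.96 and -0.55, and none was called. In osteocyte-like cells knockout replicate 2 was then the only knockout library, assumed to vary like the controls. At an unadjusted p under 0.05 stood 6.89% of all genes in osteocyte-like, 2.61% in cycling stromal-like, 3.31% in osteoblast-like and 4.39% in marrow stromal-like cells. Fgfr2 in osteoblast-like cells was at 122, 137 and 146 in the controls and at 119, 27.9 and 63.0 in the knockouts, and in chondrocyte-like cells at 73.6, 75.1 and 129.8 and then 72.0, 49.1 and 59.6. Fgfr2 thus had groups that did not overlap in 3 classes (chondrocyte-like, marrow stromal-like and osteoblast-like, where 7.34%, 9.72% and 7.85% of genes did not overlap), but its highest knockout library lay within 3 CPM of the lowest control in each, and none of the tests was called.

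**Figure D4:**
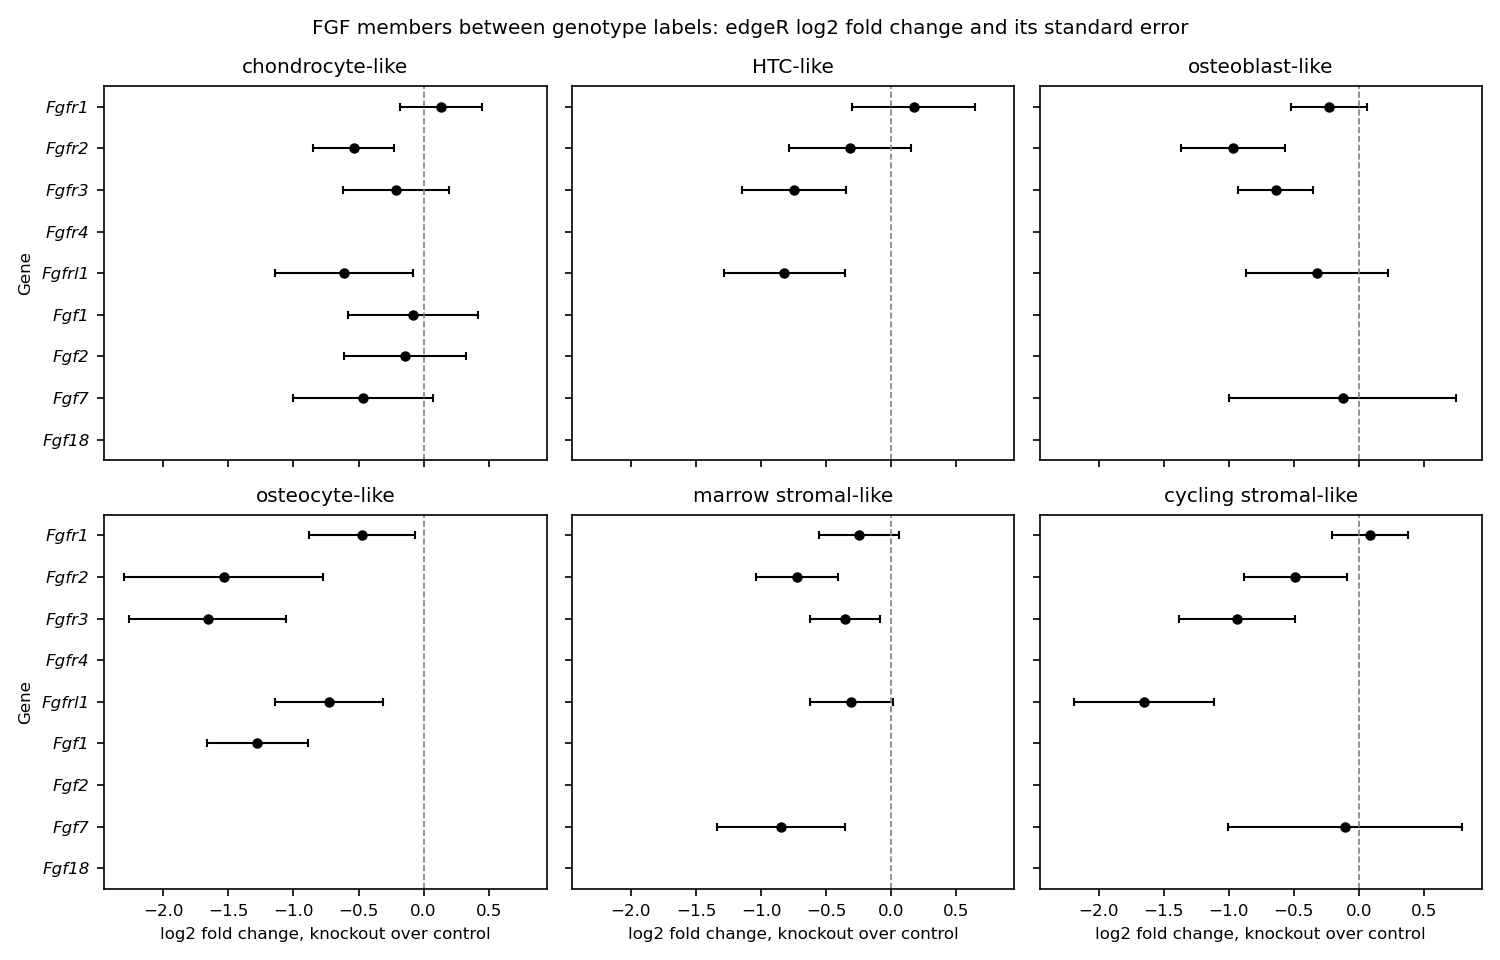
edgeR log2 fold change (knockout over control, horizontal axis) of each FGF gene that could be tested, in 6 classes of cells; points are the estimates and bars the standard errors, and the dashed line marks no difference. No gene passed an adjusted p of 0.05, and the fit in osteocyte-like cells rested on 2 knockout libraries.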

How the data were processed

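Callus cells of 3 control and 3 knockout libraries were sequenced with 10x 3′ chemistry. The authors deposited unnormalized UMI counts per gene and cell, made with Cell Ranger (6.1.1 for replicate 1 of both groups, 6.1.2 for the others) on GRCm38; Seurat is named in the processing notes. Replicate 3 of both groups lists 55357 genes and the others 55450, and the 52081 shared genes, which hold at least 97.8% of a library's UMIs, were used.

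Barcodes with at least 500 UMIs, 200 genes and at most 20% mitochondrial UMIs were kept (44937 of 46944). Scrublet scores then removed 0.8% of cells per 1000 cells of a library as doublets, because its own threshold marked 0 to 329 cells. Libraries were integrated with Seurat 5.3.0 and clustered with scanpy 1.11.5 and leidenalg 0.10.2 (2000 variable genes, resolution 0.8). Clusters were named from fixed markers, with naming thresholds set after the data were seen. At most 0.383% of the barcodes of the smaller library were shared between 2 libraries.

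Counts were summed per library and class and tested with edgeR 4.0.16 (quasi-likelihood, Benjamini-Hochberg over all genes of a class); DESeq2 1.42.0, a replicate block, no filter on low counts, other cell filters, doublet rates, resolutions and minimum cell numbers, no integration, thinning and leaving out each library were alternatives. The p-values measure the spread among these libraries only. By rule, the text names the 9 genes, Piezo1, pathway genes called between the genotype labels, the 5 pathway genes with most CPM in each cartilage class, and the 5 genes most like each member, of which 1 is not reported here. The 12 pathway genes that differed between cartilage classes in every library fall outside the rule and were named after their values were seen. The members and lists were chosen with earlier results of these data known. Scripts were tested on simulated data. There edgeR called 1 of 97 genes changed 2-fold and 40 of 96 changed 4-fold in chondrocyte-like cells, with 8 false calls. In HTC-like cells it called 6 of 88 and 48 of 87, with 4 false calls. Most 2-fold changes were thus missed.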

Additional observations from a re-analysis of the deposited data

How the results depend on the processing

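The log2 ratios of HTC-like over chondrocyte-like cells kept their sign under all 52 alternative values. Leaving out 1 library gave 2.13 to 2.43 for Fgfr1, -1.59 to -1.27 for Fgfr2, -1.57 to -1.28 for Fgfr3 and -2.27 to -1.92 for Fgfrl1. Without integration, 394 of the 413 HTC-like cells came from knockout replicate 3 and 2 to 7 from each other library. A cluster of 887 cells led by Col10a1 and Ihh was then unnamed. The ratios without integration thus rested on 1 library, with -1.97 for Fgfr2. Resolution 0.4 gave no HTC-like class. The number of FGF genes called between genotype labels went from 0 to 2 without a filter on low counts (Fgfrl1, -1.61 with an edgeR adjusted p of 0.030, and Fgfr4, both in cycling stromal-like cells, where 5 cells of control replicate 1 hold 56 UMIs of Fgfr4) and to 0 to 1 when 1 library was left out (Fgfr2 in osteocyte-like cells without knockout replicate 3, where knockout replicate 2 was the only knockout library left and was assumed to vary like the controls). That of pathway genes went to 3 without the filter and was 0 to 0 when 1 library was left out. The share of all genes called under these settings is not given here, so these counts are not set beside a background. Of 214 alternative log2 fold changes of FGF genes, 204 kept direction and side of the threshold and 9 reversed: Fgfr1 in chondrocyte-like cells had -0.0042 with at least 30 cells (-0.036 to 0.31 leaving out 1 library), Fgfr3 there 0.11 (-0.64 to 0.11), Fgfr1 in HTC-like cells -0.031 at a doublet rate of 1.6% (-0.21 to 0.61), and Fgfr2 there 0.24 without replicate 3 of both groups. The cause was not tested. After thinning to 500 UMIs, the mean share of cells with a UMI in HTC-like and chondrocyte-like cells was 31.7% and 9.15% for Fgfr1, 2.02% and 4.45% for Fgfr2, 2.81% and 11.5% for Fgfr3, and 3.19% and 9.72% for Fgfrl1.

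Replicate numbers were not taken to pair the libraries, since not every pair correlated over 0.1: same-numbered deviations correlated at 0.434, 0.245 and -0.128 over all cells, and 3 of 6 samples correlated best with their own number. Neutrophil-like cells were the exception (0.440, 0.127 and 0.329), and in marrow stromal-like cells (0.233, 0.094 and 0.133) 5 of 6 samples did so. Replicate numbers also go with the Cell Ranger version and the gene list. With the replicate block 0 FGF genes and 0 pathway genes were called, and over all genes and classes 5, against 1 without it and 51 by DESeq2.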

Other observations

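A cluster of 632 cells led by Chil1, Lcn2 and Mmp3, which no marker list named, had a receptor profile between the cartilage classes for Fgfr1. Its mean Fgfr1 level was 401 CPM, above chondrocyte-like and below HTC-like cells in 6 of 6 libraries. Fgfr3 (68.0) and Fgfrl1 (59.5) were below chondrocyte-like cells in 6 of 6 libraries, and Fgf7 (41.9) was above them in 6 of 6. In knockout replicate 2, however, this was 2 UMIs (2.24 CPM) against 0, which allow up to 5.90 CPM in its chondrocyte-like cells. These values are descriptions, with no test.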
